A study of Mus musculus with 9 samples.

Results

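The crystallins are a set of small soluble proteins that were first known from the lens and that are also made in the retina. Members were chosen by name from the deposited table of gene levels: the α-crystallins Cryaa and Cryab, the β-crystallins Cryba1, Cryba2, Cryba4, Crybb1, Crybb2 and Crybb3, and the γ-crystallins Crygs and Crygn. Of these 10 genes, 1 was analysed, Cryab, among 15228 genes in all, and the other 9 were not analysed here. The account below therefore concerns Cryab, the genes related to it by family or name, and the genes that regulate it.

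Cells sorted as retinal ganglion cells (RGCs, the neurons whose axons form the optic nerve) were sequenced from C57BL/6J mice of wild-type genotype. The study's methods give an age of 6 to 8 weeks and the use of both sexes. The 3 groups had 3 libraries each: uninjured retinas (Ctrl), retinas taken 3 d after optic nerve crush with PBS, the vehicle, injected into the eye (ONC), and retinas taken 3 d after crush with TPEN, a chelator of mobile zinc, injected at 100 μM (TPEN). Injections were given straight after the crush, and the labels call the Ctrl cells normal, so the crush and the injection cannot be told apart in ONC/Ctrl and TPEN/Ctrl. The sort kept cells positive for CD90.2 (the product of Thy1) and negative for CD48, CD15 and CD57. Whether each library was made from its own mouse is not stated, so the p-values measure the spread between these libraries, which may be technical. The comparisons ask how the level of the gene differs after the injury and how it differs when TPEN is injected after the injury.

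Cryab encodes αB-crystallin, a small heat shock protein that binds partly unfolded proteins and keeps them from aggregating without using ATP. In the lens it assembles with αA-crystallin, the product of Cryaa, while the β- and γ-crystallins are structural proteins of another fold. Outside the lens αB-crystallin is made in heart, skeletal muscle, glia and some neurons, and in the retina it is best known from Müller glia and astrocytes. Heat shock factors, which switch on chaperone genes when unfolded proteins accumulate, act on its promoter, as do the lens regulators Pax6 and the Maf proteins.

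Cryab (ENSMUSG00000032060.10) lies on the plus strand of chromosome 9, chr9:50751325-50756636 in GRCm38. All 13 distinct exons in the deposited table, with 1479 merged exon bases, were also in GENCODE M21, which gives 6 transcripts of the gene. Merged over transcripts, the exons form 5 blocks, and the coding bases of Cryab lie in the last 3, with 201, 123 and 201 bases besides the stop codon, and encode 175 residues. Hspb2, another small heat shock protein gene, lies on the minus strand at chr9:50751078-50752354 and overlaps the start of Cryab by 1030 bases. Of the exon bases of Cryab, 252 (17.0%) lie in an exon of Hspb2 and 0 of its coding bases do. The library kit was stranded, but the sources do not state whether strand was used in counting, so reads from Hspb2 over those bases may or may not be part of the Cryab value. Hspb2 itself was not analysed here.

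The exons of Cryab were aligned to all transcripts to see which other genes could share its reads. Matches were found in 7 other genes. Only the overlap with Hspb2 reached 95% identity over at least 100 bases. The match to Cryaa had 67.0% identity over 433 bases, that to Hspb6 68.6% over 194 bases and that to Hspb1 74.2% over 155 bases. None of these other matches reached the limits.

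**Figure D1:**
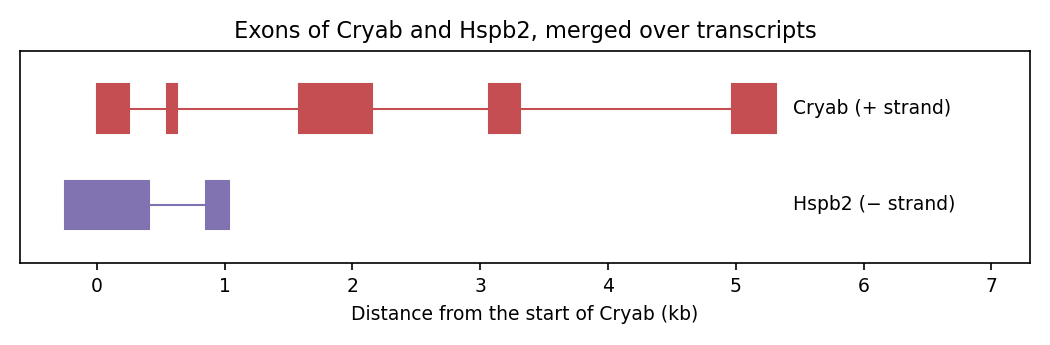
Map of the exons of Cryab and Hspb2, merged over transcripts, against the distance in kb from the start of Cryab. Boxes are exons and lines are introns. Hspb2 lies over the first 1030 bases of Cryab, and 252 of the 1479 exon bases of Cryab lie in one of its exons.

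The cells carried the markers of several retinal types. Libraries held 19946993 to 23109754 reads. The 8 rod markers summed to 15575 to 18601 RPKM (reads per kilobase of exon, scaled to the size of the library), while the 8 analysed of 10 RGC markers summed to 265 to 365 RPKM. Of the defining RGC markers, Rbpms, Pou4f1 and Slc17a6 were at or below 0.688 RPKM in every library. Thy1, whose product was used for the sort, was at 4.54 to 4.96 RPKM in Ctrl, 5.26 to 5.54 in ONC and 6.70 to 7.58 in TPEN. The name RGCs thus stands for the cells sorted as RGCs. None of the analysed markers was at 0 in a library, and the listed markers that were not analysed have no value here. The absence of zeros held for the analysed genes of every list, so it does not tell which cell types were present. Of the markers of lens cells, 4 of 15 for lens fibers and 1 of 5 for lens epithelium were analysed. Among them Lenep was at 2.09 to 3.61 RPKM and Aqp5 at 0.107 to 1.02 RPKM, while Tdrd7, also used by other cells, was at 92.5 to 102 RPKM. In a bulk sample, a change in the number of cells of one type and a change in RNA per cell cannot be told apart.

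Cryab was expressed at a moderate level in all groups. Its mean over the 9 libraries was 10.8 RPKM, which ranked 4049 of the 15228 genes. In Ctrl the level was 9.02, 9.51 and 11.5 RPKM. In ONC it was 13.5, 13.5 and 12.01 RPKM. In TPEN it was 9.71, 9.74 and 9.08 RPKM. Every ONC library was above every Ctrl and every TPEN library, and the lowest ONC value lay close to the highest Ctrl value. The TPEN values fell within the range of Ctrl.

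The mean level was 13.01 ± 0.864 RPKM in the ONC group, against 10.01 ± 1.32 RPKM in the uninjured cells and 9.51 ± 0.370 RPKM with TPEN (SD, n = 3 each). The order from high to low was ONC, Ctrl and TPEN, and Ctrl and TPEN did not differ beyond their spread. Over the 3 groups the level differed in an exact permutation test of the F statistic (p = 0.0321, 280 distinct arrangements, smallest possible p 0.00357). The exact p was 0.0679 without ONC replicate 1, 2 or 3, and 0.0179 to 0.0464 without 1 of the 6 libraries of the other groups.

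The values rested on 268 to 460 reads a library. These were 299, 325 and 342 reads in Ctrl, 460, 458 and 408 in ONC and 287, 320 and 268 in TPEN. Poisson intervals of 95%, which cover counting error only, were 8.03 to 10.1 RPKM for Ctrl replicate 1 and 10.3 to 12.8 RPKM for Ctrl replicate 3, so that these libraries of one group differed by more than counting error. The coefficient of variation among libraries was 13.2% in Ctrl against 5.58% from counting alone. In ONC it was 6.64% against 4.76%, and in TPEN it was 3.89% against 5.87%. Ctrl was thus the group with the widest spread, and the TPEN libraries were no farther apart than counting error.

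**Figure D2:**
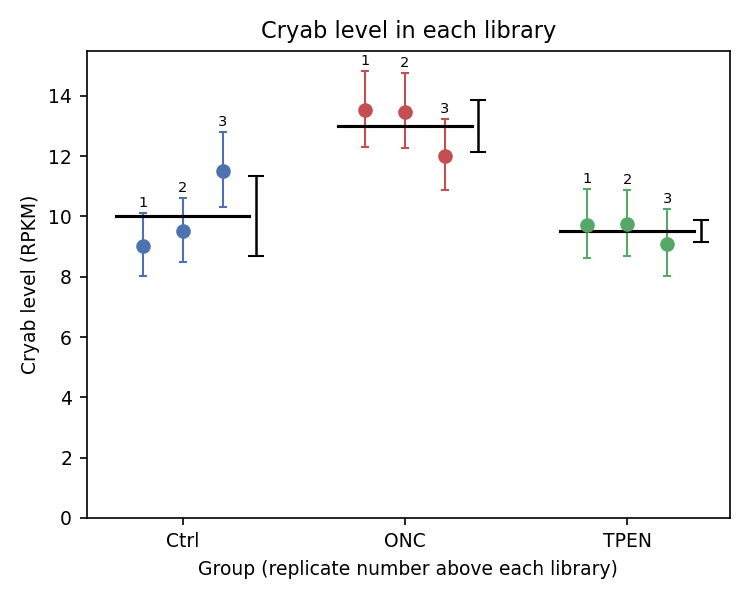
Cryab level (RPKM) in each library, by group, with the replicate number above each point and 95% Poisson intervals as coloured bars. Black lines are group means and the black bars beside them ± SD (n = 3). The 3 ONC libraries, from 12.01 to 13.5 RPKM, sit above the 3 Ctrl libraries (9.02 to 11.5 RPKM) and the 3 TPEN libraries (9.08 to 9.74 RPKM).

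After the crush, Cryab rose 1.30-fold. In ONC/Ctrl its log2 fold change was 0.38 (SE 0.089, 95% confidence interval 0.18 to 0.58), with a limma adjusted p of 0.0147 over the 13566 genes tested. The interval corresponds to 1.13-fold to 1.49-fold, so that the change was below the 1.5-fold threshold that the study set for a differentially expressed gene, which 5.34% of all genes tested passed. Of all genes tested, 11.7% rose in ONC/Ctrl by the same test, 20.7% had every ONC library above every Ctrl library, and 8.83% had a higher log2 fold change than Cryab. Without Ctrl replicate 3, the highest of its group, the log2 fold change was 0.48 (adjusted p = 0.00152). The adjusted p was 0.0532 and 0.0534 without Ctrl replicates 1 and 2, and 0.0567 and 0.0551 without ONC replicates 1 and 2. The call therefore rested on each of these 4 libraries.

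With TPEN injected after the crush, the gene was lower than with PBS. In TPEN/ONC Cryab fell by 0.45 on the log2 scale (SE 0.089, 95% confidence interval of the change -0.65 to -0.25, limma adjusted p = 0.0158), or to 0.734 of its ONC level. Of all genes tested, 4.14% fell in TPEN/ONC, 15.6% had every TPEN library below every ONC library, and 3.33% had a lower log2 fold change than Cryab. The estimate of this change was also smaller than 1.5-fold, which 2.03% of all genes tested passed. Its interval, 0.639-fold to 0.843-fold, reached beyond a 1.5-fold fall. The adjusted p was 0.0648 and 0.0637 without ONC replicates 1 and 2, and 0.0623 without TPEN replicate 3.

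Between the injured retinas with TPEN and the uninjured ones, no difference in Cryab was detected. The log2 fold change in TPEN/Ctrl was -0.07 with a 95% confidence interval of -0.27 to 0.13 (limma adjusted p = 0.689), or 0.832-fold to 1.10-fold. A difference of up to this size is not excluded by the interval. Without Ctrl replicate 3 the value turned to 0.04. In the exact permutation test of each pair, where 3 against 3 libraries cannot give a p below 0.1, the p was 0.1 for ONC/Ctrl, 0.1 for TPEN/ONC and 0.9 for TPEN/Ctrl.

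ONC/Ctrl and TPEN/ONC share the ONC libraries, so a high value in those libraries enters both comparisons with opposite signs. Of the 13566 genes, 408 (3.01%) rose in ONC/Ctrl and fell in TPEN/ONC, and 207 of them (1.53%) did not pass the test in TPEN/Ctrl, Cryab included. Quantile normalization of the libraries, which shifts the balance of higher and lower calls over all genes, kept both Cryab calls, with adjusted p of 0.0218 and 0.0170.

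Of the other small heat shock proteins, 1 of 7 was analysed. Hspb6 encodes HSP20, a relative of αB-crystallin known from muscle and brain. Its level was 12.5, 12.5 and 13.3 RPKM in Ctrl, 17.4, 16.5 and 17.0 RPKM in ONC and 16.1, 16.3 and 15.0 RPKM in TPEN. Every library of both injured groups was above every Ctrl library. Such a gap from Ctrl was found for ONC in 20.7% of all genes tested and for TPEN in 18.1%. Hspb6 rose by a log2 fold change of 0.41 in ONC/Ctrl (SE 0.046, limma adjusted p = 2.2e-04), close to the 0.38 of Cryab. In TPEN/ONC its log2 fold change was -0.10 (95% confidence interval -0.21 to 0.0027, adjusted p = 0.239), and in TPEN/Ctrl Hspb6 rose by 0.31 (adjusted p = 0.00190). Its gene lies on chromosome 7 and overlaps Lin37 and Proser3, whose reads could be split with it.

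The ratio of Cryab to another gene within a library was used to test whether the genes changed by unequal amounts. These ratios were chosen after the values were seen, and p-values are adjusted over the 6 ratios tested. Among the 6 are the ratios to Crym, Vim and Gfap, given below, whose larger changes were known by then. Their small p-values lower the adjusted p-values of the other ratios. The log2 ratio of Cryab to Hspb6 was -0.36 ± 0.13 in Ctrl, -0.38 ± 0.11 in ONC and -0.73 ± 0.0066 in TPEN (SD, n = 3). All TPEN libraries were below all others in this ratio, and Ctrl and ONC overlapped. The 3 groups differed in the exact permutation test (p = 0.0321), with an adjusted p of 0.0482 that rests on which 6 ratios were chosen. Leaving out any one library gave an unadjusted p of 0.0179 to 0.0429. The ratio was lower by 0.35 in TPEN than in ONC, while ONC and Ctrl differed by 0.028.

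Against the heat shock proteins of other families, the ratio did not pass the test over the 3 groups. The log2 ratio of Cryab to Hspa8, the constitutive HSP70 chaperone, was -4.29 ± 0.18 in Ctrl, -4.17 ± 0.10 in ONC and -4.39 ± 0.05 in TPEN, with an exact permutation p of 0.175 and an adjusted p of 0.175. The ratio to Dnajb1, an HSP40 cochaperone, gave an exact permutation p of 0.161 (adjusted p = 0.175). Between TPEN and ONC, however, both ratios did not overlap, with a difference of -0.22 for Hspa8 and -0.24 for Dnajb1 (exact permutation p = 0.1 each, the smallest possible for 3 against 3). Leaving out any one library gave p over the 3 groups of 0.0714 to 0.368 for Hspa8 and 0.0179 to 0.257 for Dnajb1.

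**Figure D3:**
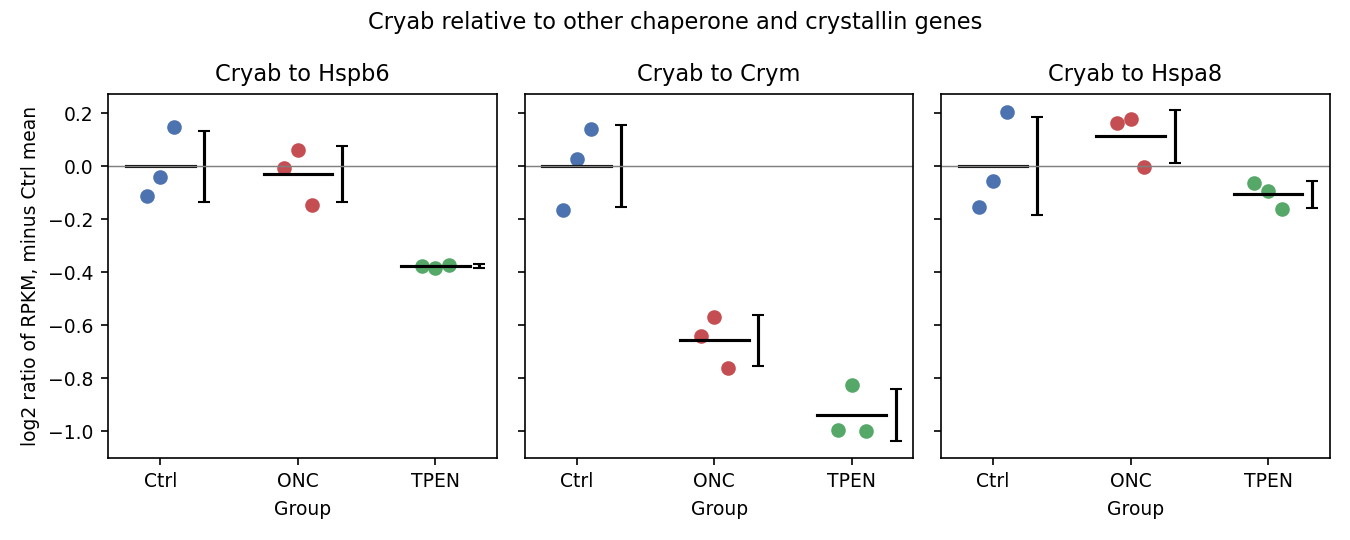
Log2 ratio of the RPKM of Cryab to that of Hspb6, Crym and Hspa8 in each library, minus the Ctrl mean, by group. Points are libraries, horizontal lines group means and bars ± SD (n = 3). The 3 TPEN libraries lie together below Ctrl and ONC in the ratio to Hspb6, and all ONC and TPEN libraries lie below Ctrl in the ratio to Crym.

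Genes that carry the crystallin name without being members of the lens families were read next. Of 8 such genes, 4 were analysed. Crym encodes μ-crystallin, a reductase that binds thyroid hormone. Its level was 5.63, 5.19 and 5.82 RPKM in Ctrl, 11.7, 11.1 and 11.3 RPKM in ONC and 10.8, 9.61 and 10.1 RPKM in TPEN. Its ONC and TPEN libraries were all above its Ctrl libraries by a wide margin. The ONC libraries all lay above Ctrl in 20.7% of all genes tested, and the TPEN libraries in 18.1%.

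Crym rose by a log2 fold change of 1.03 in ONC/Ctrl (SE 0.061, limma adjusted p = 2.9e-06) and by 0.86 in TPEN/Ctrl (adjusted p = 1.7e-05). In TPEN/ONC its log2 fold change was -0.17 (adjusted p = 0.143). The log2 ratio of Cryab to Crym was 0.85 in Ctrl, 0.19 in ONC and -0.09 in TPEN, which differed over the groups (exact permutation p = 0.00357, the smallest possible, adjusted p = 0.0107). The larger change of Crym was known when this ratio was chosen, so its p-value is not separate support. Crym was thus higher in both injured groups than in Ctrl, and Cryab in the ONC group.

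Crybg3, a protein with crystallin-like domains that anchors a kinase, rose in TPEN/Ctrl by a log2 fold change of 0.48 (SE 0.12, limma adjusted p = 0.0266). Its level was 1.46 to 1.95 RPKM in Ctrl, 1.69 to 2.01 in ONC and 2.32 to 2.35 in TPEN, so TPEN did not overlap with the other groups. Over all genes tested, 18.1% had every TPEN library above every Ctrl library. The Crybg3 call was lost without 1 of 5 libraries, Ctrl replicates 1 and 3 or any TPEN library, with adjusted p of up to 0.0885. Cryz, ζ-crystallin, a quinone reductase, had log2 fold changes of 0.014 in ONC/Ctrl and 0.085 in TPEN/ONC at 0.545 to 0.842 RPKM. Cryzl1, its relative, had 0.11 and -0.10 (limma adjusted p = 0.161 and 0.308). Across the 4 genes, 1 rose and 0 fell in ONC/Ctrl, 0 changed in TPEN/ONC and 2 rose in TPEN/Ctrl. Over all genes tested, 11.7% rose in ONC/Ctrl, 7.39% changed in TPEN/ONC and 8.36% rose in TPEN/Ctrl. The medians were 0.12, -0.0062 and 0.29 on the log2 scale, against 0.017, -0.011 and 0.012 over all genes tested. At an unadjusted p under 0.05 in limma, 2980 of all genes tested passed in TPEN/ONC. Crybg3 overlaps Mina, Cryz overlaps Tyw3, and Cryzl1 overlaps Atp5o and Gm10785, whose reads could be split with them.

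Cryab is a known target of heat shock factors, and the list of 12 other targets was analysed whole. In ONC/Ctrl, 5 rose and 0 fell, with 7 that did not pass the test. Over all genes tested 18.7% changed in either direction. Bag3, a cochaperone of HSP70 that works with the small heat shock proteins in the clearance of aggregates, rose most, with a log2 fold change of 1.55 (SE 0.18, limma adjusted p = 3.0e-04). Its level was 0.801, 1.08 and 1.21 RPKM in Ctrl, 4.11, 2.79 and 2.77 RPKM in ONC and 3.42, 3.00 and 2.70 RPKM in TPEN. All 6 injured libraries were above those of Ctrl, where 20.7% of all genes tested had this for ONC and 18.1% for TPEN.

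The other targets that rose in ONC/Ctrl did so by smaller amounts. Dnajb1 had a log2 fold change of 0.39, Hspa8 0.27, Hsph1, an HSP110 chaperone, 0.26 and Dnaja1, an HSP40 cochaperone, 0.19. The 2 inducible HSP70 genes were not among them, with 0.00 for Hspa1a and -0.04 for Hspa1b, near-identical copies whose reads could be split between them. In these 2 genes the ONC range overlapped that of Ctrl, at 28.0 to 30.1 against 28.1 to 31.8 RPKM for Hspa1a and 58.2 to 69.7 against 61.0 to 75.7 RPKM for Hspa1b. The call was lost for Hsph1 without ONC replicate 3 (limma adjusted p = 0.0620) and for Dnaja1 without ONC replicate 1 or 2 (up to 0.0788). The median of the 12 targets was 0.11 in ONC/Ctrl on the log2 scale.

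In TPEN/ONC, 2 of the 12 targets fell, 1 rose and 9 did not pass the test. Over all genes tested, 7.39% changed in either direction. Hspa8 fell by 0.23 on the log2 scale (SE 0.021, limma adjusted p = 2.6e-04). Its level was 193 to 196 RPKM in Ctrl, 233 to 236 RPKM in ONC and 198 to 203 RPKM in TPEN. Like Cryab, Hspa8 was thus higher in every ONC library than in every other library. Over all genes tested, 20.7% had every ONC library above every Ctrl library, and 15.6% had every TPEN library below every ONC library. Dnajb1 fell by 0.21 (SE 0.053, limma adjusted p = 0.0429), from 22.6 to 23.1 RPKM in ONC to 19.4 to 20.3 RPKM in TPEN, with 16.0 to 18.3 RPKM in Ctrl. Hspa4l, an HSP110 chaperone, rose by 0.15 (adjusted p = 0.0220). Leaving out 1 library ended the Dnajb1 call in 7 of 9 cases and the Hspa4l call in 4 of 9 (ONC replicates 2 and 3, TPEN replicates 1 and 3), with adjusted p of up to 0.131 and 0.0822, while Hspa8 passed in all 9. The Dnajb1 call was kept without Ctrl replicates 2 and 3.

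In TPEN/Ctrl, 1 of the 12 targets rose, Bag3, with a log2 fold change of 1.49 (limma adjusted p = 6.0e-04), and 0 fell. Over all genes tested, 13.4% changed in either direction. Its log2 fold change in TPEN/ONC was -0.06 (95% confidence interval -0.48 to 0.35). The 12 medians were -0.11 in TPEN/ONC and 0.017 in TPEN/Ctrl. By these values Cryab, Hspa8 and Dnajb1 passed the test in both ONC/Ctrl and TPEN/ONC, with opposite directions, whereas Bag3 and Hspb6 passed it in ONC/Ctrl and TPEN/Ctrl. The unequal change relative to Cryab was tested above for Hspb6, Hspa8 and Dnajb1, and not for Bag3.

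**Figure D4:**
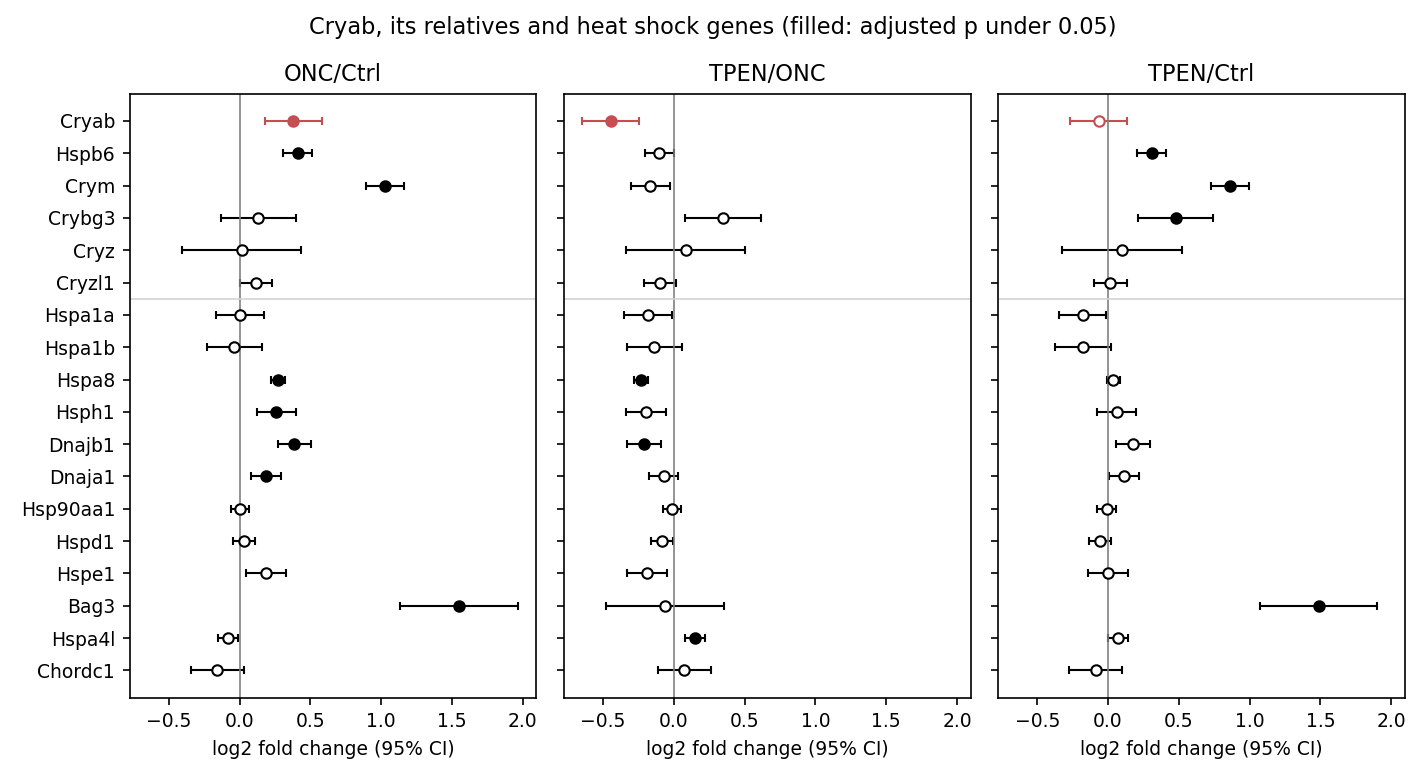
Log2 fold change of Cryab (red), its relatives by family or name (upper block) and 12 heat shock factor targets (lower block) in ONC/Ctrl, TPEN/ONC and TPEN/Ctrl, with 95% confidence intervals from limma over 9 libraries. Filled points passed an adjusted p of 0.05. Cryab is at 0.38, -0.45 and -0.07, and Bag3 is the farthest to the right in ONC/Ctrl at 1.55.

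Of 17 genes that are known to regulate crystallin genes, 13 were analysed and 12 tested. In ONC/Ctrl, 2 rose and 2 fell, against 11.7% and 6.97% of all genes tested. Mafk, a small Maf protein, rose by a log2 fold change of 0.61 (SE 0.12, limma adjusted p = 0.00595), from 2.17 to 2.67 RPKM in Ctrl to 3.49 to 3.87 RPKM in ONC. Crebbp, a coactivator that acetylates histones, rose by 0.15 (adjusted p = 0.0481). Hsf2, a heat shock factor, fell by 0.32 (SE 0.066, adjusted p = 0.00793). Nrl, the Maf factor of rods, fell by 0.12 (adjusted p = 0.0377). Hsf1, the main factor of the heat shock response, had a log2 fold change of 0.027 (adjusted p = 0.865). The Crebbp call was lost without any 1 of the 9 libraries (limma adjusted p of up to 0.133) and the Nrl call without 5 of them (up to 0.118), namely Ctrl replicate 3, ONC replicates 1 and 3 and TPEN replicates 1 and 3. Mafk and Hsf2 passed in all 9 cases.

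In TPEN/ONC, 3 regulators rose and 0 fell, against 3.24% and 4.14% of all genes tested. Prox1, a homeodomain factor of lens fibers and of horizontal and amacrine cells, rose by 0.60 on the log2 scale (SE 0.12, limma adjusted p = 0.0139). Its level was 1.82 to 2.25 RPKM in Ctrl, 1.57 to 1.74 RPKM in ONC and 2.28 to 2.83 RPKM in TPEN. Pax6, which is needed for the lens and is kept in amacrine cells and RGCs, rose by 0.37 (SE 0.066, adjusted p = 0.0105), with 5.95 to 6.46 RPKM in ONC and 7.75 to 8.59 RPKM in TPEN. Hsf2 rose by 0.26 (adjusted p = 0.0472). The Pax6 call was kept without any 1 library. The Prox1 call was lost without ONC replicate 2 or TPEN replicate 2 or 3 (limma adjusted p of up to 0.0557). The Hsf2 call was kept only without Ctrl replicate 2 or 3 (up to 0.149 otherwise).

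In the fit to all 9 libraries, Hsf2 thus passed the test in both comparisons with signs opposite to those of Cryab. Hsf2 was at 9.38 to 11.0 RPKM in Ctrl, 7.66 to 8.20 RPKM in ONC and 9.11 to 9.88 RPKM in TPEN. In TPEN/Ctrl, 2 regulators rose, Sox2 (0.32, limma adjusted p = 0.0422) and Pax6 (0.29, adjusted p = 0.0174), and 0 fell, against 8.36% and 5.01% of all genes tested. The Sox2 call was kept only without Ctrl replicate 3 or TPEN replicate 2 (limma adjusted p of up to 0.130 otherwise), and the Pax6 call was lost without Ctrl replicates 2 or 3 or TPEN replicate 3 (up to 0.0655). The medians of the 12 were 0.028, 0.039 and 0.046 on the log2 scale in ONC/Ctrl, TPEN/ONC and TPEN/Ctrl. Hsf2, Pax6, Prox1 and Sox2 each overlap another annotated gene, whose reads could be split with them.

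The nearest analysed genes on either side of Cryab that do not overlap it were read next. Hspb2, which overlaps Cryab, was not analysed, so these values cannot show whether the locus moved as a whole. Dixdc1, a signalling protein of the Wnt pathway, ends 11808 bases before the start of Cryab, and fell by 0.17 in ONC/Ctrl on the log2 scale (SE 0.031, limma adjusted p = 0.00401). In TPEN/ONC its log2 fold change was 0.10 (adjusted p = 0.0821). The gene 1110032A03Rik starts 6192 bases after the end of Cryab and had log2 fold changes of -0.15 in ONC/Ctrl and 0.08 in TPEN/ONC (adjusted p = 0.426 and 0.748). This gene overlaps Alg9 and Fdxacb1, whose reads could be split with it. Both values of each gene were opposite in sign to those of Cryab, and only that of Dixdc1 in ONC/Ctrl passed the test.

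Genes with a profile most like that of Cryab were ranked by Pearson's r of log2(RPKM + 0.1) over the 9 libraries. The points share their libraries and depth, and the values are a description over 13565 genes, of which 66 had an r of at least 0.9 and the median was 0.055. The 5 highest were Smarca4 (r = 0.967), an ATPase of chromatin remodelling, Gas2l1 (r = 0.964), which links actin and microtubules, Ptn (r = 0.962), the secreted growth factor pleiotrophin, Ecm1 (r = 0.956), a secreted matrix protein, and Rnf207 (r = 0.955), a RING finger protein. Smarca4 overlaps Gm27373 and Rnf207 overlaps Icmt.

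These 5 genes were picked for their likeness to Cryab over the same 9 libraries. Their directions follow from that choice, and their p-values are not separate support. Of these 5 genes, Ecm1, Gas2l1 and Ptn had larger changes than the others. Ptn was at 10.8 to 12.3 RPKM in Ctrl, 12.6 to 14.3 RPKM in ONC and 10.1 to 10.8 RPKM in TPEN. It rose by 0.24 on the log2 scale in ONC/Ctrl and fell by 0.35 in TPEN/ONC (limma adjusted p = 0.0316 and 0.0113). Ecm1, at 1.26 to 1.97 RPKM, rose by 0.40 and fell by 0.47 (limma adjusted p = 0.0247 and 0.0262). Smarca4 and Rnf207 rose and fell by 0.10 to 0.20 on the log2 scale at levels above 79.1 RPKM. Gas2l1 had 0.33 and -0.37 at 0.658 to 1.03 RPKM and did not pass the test (limma adjusted p = 0.141 and 0.159). In ONC/Ctrl the calls of Ptn, Ecm1 and Smarca4 were lost without Ctrl replicate 1 or 2 or ONC replicate 1 or 2, and that of Smarca4 also without TPEN replicate 3, with limma adjusted p of up to 0.114. In TPEN/ONC the Ecm1 call was lost without any 1 ONC or TPEN library (up to 0.0953), and the Smarca4 call without ONC replicate 1 or 2 or any TPEN library. Rnf207 passed in all 9 cases in both comparisons.

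**Figure D5:**
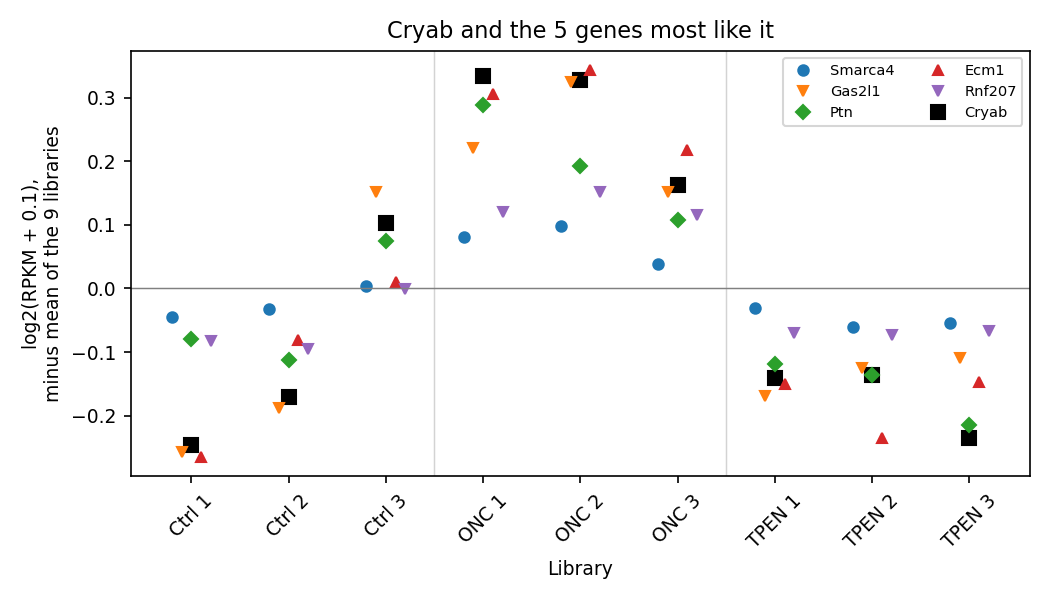
Level of Cryab (black squares) and of the 5 genes with the highest Pearson's r to it in each library, as log2(RPKM + 0.1) minus the gene's mean over the 9 libraries. In all 6 genes the 3 ONC libraries lie above 0 and the 3 TPEN libraries below 0, and Ctrl replicate 3 is the highest Ctrl library.

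Among the listed genes, the nearest to Cryab by r were Nefm, a neurofilament of RGC axons (r = 0.914, rank 47), Apoe, the apolipoprotein of glia (r = 0.879, rank 100), and Hspa8 (r = 0.858, rank 159). Hspb6 was at rank 1847 (r = 0.577). The most opposite was Hsf2 (r = -0.865). Nefm was at 46.7 to 51.6 RPKM in Ctrl, 58.8 to 61.9 in ONC and 43.6 to 45.9 in TPEN, and Apoe at 168 to 174, 264 to 274 and 175 to 184 RPKM. Both were highest in the 3 ONC libraries, like Cryab, which follows from their choice by r.

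Markers of several cell types moved with the groups, and the values are given beside the changes of Cryab. The 8 microglia and macrophage markers, all analysed, summed to 3.43 to 3.82 RPKM in Ctrl, 45.7 to 50.1 RPKM in ONC and 19.7 to 20.3 RPKM in TPEN. All 8 rose in ONC/Ctrl, and 5 fell in TPEN/ONC, where 11.7% of all genes tested rose in ONC/Ctrl and 4.14% fell in TPEN/ONC. The astrocyte markers, 4 of 5 analysed, summed to 6.05 to 6.57, 28.5 to 29.8 and 18.5 to 21.9 RPKM, of which 3 rose in ONC/Ctrl and 1, Gfap, fell in TPEN/ONC. Gfap, the intermediate filament of astrocytes and reactive Müller glia, was at 2.73 to 2.83 RPKM in Ctrl, 21.8 to 22.9 in ONC and 13.4 to 15.1 in TPEN.

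The 10 Müller glia markers, all analysed, summed to 588 to 603 RPKM in Ctrl, 664 to 677 in ONC and 535 to 546 in TPEN. The sum, like Cryab, was highest in ONC, but its Ctrl and TPEN ranges did not overlap, whereas those of Cryab did. Its members did not move together, with 3 that rose and 4 that fell in ONC/Ctrl, and 1 that rose and 4 that fell in TPEN/ONC. Over all genes tested, 6.97% fell in ONC/Ctrl and 3.24% rose in TPEN/ONC. Vim, the intermediate filament of Müller glia, was at 18.1 to 19.6, 55.4 to 58.1 and 40.5 to 45.9 RPKM. Glul, the glutamine synthetase of Müller glia, was at 169 to 175, 116 and 100 to 107 RPKM. Apoe, the largest member of this sum in ONC, was at 168 to 174, 264 to 274 and 175 to 184 RPKM. Rlbp1 was at 122 to 129, 110 to 112 and 92.2 to 97.9 RPKM. The Müller glia sum was thus highest in ONC through members such as Apoe and Vim, while Glul and Rlbp1 were lower in ONC than in Ctrl. The RGC markers summed to 329 to 339, 345 to 365 and 265 to 278 RPKM, again highest in ONC, and here too Ctrl and TPEN did not overlap. The sum was mostly Nefl (193 to 271 RPKM) and Nefm (43.6 to 61.9 RPKM), and its members did not move together. Of the 5 tested, 2 rose and 0 fell in ONC/Ctrl, and 1 rose and 3 fell in TPEN/ONC. Thy1 was the one that rose, by 0.40 on the log2 scale (limma adjusted p = 0.00587). Rbpms and Pou4f1, not tested for their low level, were at 0.495 to 0.688 and 0.405 to 0.678 RPKM in Ctrl against 0.357 to 0.444 and 0.0746 to 0.308 RPKM in ONC. Slc17a6, not tested for the same reason, went the other way, at 0.185 to 0.321 RPKM in Ctrl against 0.347 to 0.484 RPKM in ONC. Photoreceptor markers moved as well. Of the 8 rod markers, 7 fell and 1 rose in ONC/Ctrl, and their sum was 17766 to 18601 RPKM in Ctrl, 15575 to 15796 in ONC and 16759 to 16878 in TPEN. In TPEN/ONC, 2 of them rose and 1 fell, and in TPEN/Ctrl 0 rose and 5 fell. The 6 cone markers summed to 107 to 114, 96.8 to 104 and 165 to 168 RPKM. Of these, 1 rose and 3 fell in ONC/Ctrl, 5 rose and 0 fell in TPEN/ONC and all 6 rose in TPEN/Ctrl. Of all genes tested, 11.7% rose in ONC/Ctrl and 4.14% fell in TPEN/ONC, and in TPEN/Ctrl 8.36% rose and 5.01% fell. The part of these cell types in the change of Cryab was not tested. The following ratios ask only whether Cryab and the glial filament genes Gfap and Vim changed by unequal amounts.

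The log2 ratio of Cryab to Gfap was 1.84 in Ctrl, -0.78 in ONC and -0.60 in TPEN, and differed over the groups (exact permutation p = 0.00357, adjusted p = 0.0107). The ratio to Vim was -0.93, -2.14 and -2.21 (exact permutation p = 0.0214, adjusted p = 0.0429). Both glial filament genes had larger log2 fold changes than Cryab in ONC/Ctrl, 2.95 for Gfap and 1.59 for Vim (limma adjusted p = 1.6e-09 and 4.4e-08). These changes were known when the 2 ratios were chosen. That the ratios differed over the groups was thus fixed beforehand, and their p-values are not separate support. In TPEN/ONC the ratio to Vim differed by -0.07 (exact permutation p = 0.6, where 0.1 is the smallest possible), with ranges that overlapped. The ratio to Gfap was higher in TPEN than in ONC by 0.18, without overlap (exact permutation p = 0.1, the smallest possible).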

How the data were processed

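RNA from the sorted cells was sequenced from stranded mRNA libraries with molecular identifiers. The authors trimmed reads (Trimmomatic 0.36, per the submitters' processing notes), mapped them with STAR to GRCm38/mm10 and deposited RPKM per gene with exon coordinates and lengths. The counting program, annotation, strand setting and collapsing of identifiers are not given in the sources used here. The deposited fold changes and p-values of the authors' comparisons, made with edgeR, were not used. Groups came from the sample titles.

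RPKM values times exon length were whole multiples of one step per library within 0.01, which gave the reads. Replicate pairs differed by more than sampling noise (mean chi-square per gene 2.30 to 5.32) and were kept as 9 samples. limma 3.58.1 with a variance trend in R 4.3.3 was fitted to the 3 groups on log2(RPKM + 0.1). Genes whose mean fell below 0.5 RPKM were left out, which left 13566, with Benjamini-Hochberg adjustment over these genes and a threshold of 0.05. All fold changes are on that scale, which understates the changes of low genes. The script was tested on simulated data. Exact permutation tests (scipy 1.17.1) were two-sided and used RPKM, or log2 RPKM ratios. Exon alignments used blastn 2.17.0 against GENCODE M21 transcripts. Alternatives were other normalization, filters, pseudocount, samples in the fit, variance trend, a replicate block, leaving out each library, and voom on the recovered reads, the last chosen after seeing the data.

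The members and gene lists were chosen with earlier results of these data known. Genes named from a list were up to 4 with the greatest absolute log2 fold change among those that passed the test, and the 5 genes most like Cryab. Dnaja1, Nrl, Hsf1, Hspa1a, Hspa1b, Thy1, Cryz, Cryzl1, the neighbours and the markers were named outside that rule, after their values were seen. Some items are not reported here.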

Additional observations from a re-analysis of the deposited data

How the results depend on the processing

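The Cryab calls in ONC/Ctrl and TPEN/ONC held under quantile normalization, no filter on low values, a filter at 1 RPKM, 1 RPKM as pseudocount, a fit to the 6 libraries compared, no variance trend and voom on reads, with limma adjusted p of 0.00307 to 0.0334 and 0.00219 to 0.0370. Leaving out 1 library gave 0 to 1 crystallins past the threshold in both comparisons. The exact permutation p over the 3 groups then ranged from 0.0179 to 0.0679. Over all genes, TPEN/ONC had 1002 genes past the threshold, 1688 with voom on reads and 529 to 1157 without 1 library. Quantile normalization moved the share of calls that were higher from 62.7% to 46.9% in ONC/Ctrl, from 43.9% to 53.9% in TPEN/ONC and from 62.5% to 52.0% in TPEN/Ctrl. The cause was not tested.

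The replicate numbers in the titles did not pair the libraries: 0 of 9 same-number pairs had deviations correlated above 0.1, and 4 of 18 cases correlated best with their own number. With a replicate block the adjusted p of Cryab was 0.0394 in ONC/Ctrl and 0.0484 in TPEN/ONC in limma, and the counts over all genes were 2224 in ONC/Ctrl, 701 in TPEN/ONC and 1464 in TPEN/Ctrl.

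Of 43 calls of named genes, 25 held without any 1 library and 18 did not. At least 1 of the other alternatives ended 14 of the calls. Under the replicate block these were Crebbp, Nrl and Ptn in ONC/Ctrl, Dnajb1 and Hsf2 in TPEN/ONC, Ecm1 and Smarca4 in both and Sox2 in TPEN/Ctrl. The others were Dnaja1 in ONC/Ctrl under quantile normalization, Crybg3 in TPEN/Ctrl with the 6 libraries compared, and Glul and Hspa4l in TPEN/ONC without a variance trend. The limma adjusted p then reached 0.0515 to 0.202. Signs reversed for small changes. Under quantile normalization the log2 fold change of Cryz was -0.14 in ONC/Ctrl and -0.0523 in TPEN/Ctrl, that of Hspa1a -0.0428 and of Hsf1 -0.00557 in ONC/Ctrl, and that of Cryzl1 -0.0101 in TPEN/Ctrl. Without 1 library each in turn, it ran from -0.084 to 0.15 for Cryz in ONC/Ctrl, from -0.0299 to 0.0573 for Hspa1a in ONC/Ctrl, from -0.0999 to 0.0548 for Hspa1b in ONC/Ctrl, from -0.0643 to 0.0793 for Hsf1 in ONC/Ctrl, from -0.0215 to 0.25 for Cryz in TPEN/ONC, from -0.16 to 0.12 for Bag3 in TPEN/ONC, from -0.14 to 0.0373 for Cryab in TPEN/Ctrl, from -0.00775 to 0.27 for Cryz in TPEN/Ctrl, from -0.00628 to 0.0306 for Cryzl1 in TPEN/Ctrl, from -0.11 to 0.0297 for Hsf1 in TPEN/Ctrl, from -0.11 to 0.00153 for Hsf2 in TPEN/Ctrl, from -0.18 to 0.0179 for 1110032A03Rik in TPEN/Ctrl, from -0.12 to 0.0876 for Gas2l1 in TPEN/Ctrl and from -0.0284 to 0.0188 for Rnf207 in TPEN/Ctrl.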
